A study of Mus musculus with 7 samples.

Results

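Lysosomal enzymes and membrane proteins were examined in the soleus, a postural hindlimb muscle, of wild type mice and mice labelled as a knockout of Yy1. This is the gene of the transcription factor Yin Yang 1. The set was a list of 33 genes for cathepsins and other proteases, glycosidases, lipid enzymes and their helper proteins, proteins of the lysosomal membrane, and granulin. For each gene the probe set (the group of array probes that reports one transcript) with the highest mean log2 value over the arrays was used, provided that it carried exactly 1 gene symbol in the platform annotation. On that rule 32 of the 33 genes were measured, out of 12393 genes in all, and Cd63 was not analysed here. The arrays came from 3 wild type samples and 4 samples whose genotype is given as a Yin Yang 1 (YY1) knockout, all from animals 6 months old on a mixed background (C57Bl/6 and 129). The sources used here do not say which cells lost Yy1, by which allele or Cre, or whether each array stands for a separate animal, and the p-values therefore measure only how far these samples spread.

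Lysosomes are acidic compartments in which proteins, glycans and lipids from endocytosis and autophagy are broken down. Most of their soluble enzymes are tagged with mannose 6-phosphate in the Golgi and carried by receptors to the endosome, a proton pump keeps the lumen acidic, and a family of transcription factors led by TFEB binds E-box elements in many lysosomal promoters. Inherited loss of single enzymes causes storage diseases, several of which, such as the loss of acid alpha-glucosidase in Pompe disease, damage skeletal muscle. Macrophages are rich in lysosomes, and fibroblasts and osteoclasts make cathepsin K.

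The promoters of the members are shown first, because E-boxes are the element best known in lysosomal promoters and Yin Yang 1 is the factor targeted here. RefSeq promoter windows (build GRCm38.p6, 250 bases before to 50 after a start site) were found for 28 of the 33 genes. The E-box core CACGTG was in the window of 9 of these 28 genes (32.1%), against 10.8% of 9887 array genes and 7.15% of all 32851 windows. The longer form TCACGTGA, which contains the core, was in 3 (Ctsa, Ctsd and Gla), against 1.76% of array genes, and the full CLEAR element, which extends that form by 1 base on each side, was in 0, against 0.556%. The motif AANATGGCG, a common form of the Yin Yang 1 element, was in the windows of Ppt1 and Npc2 (7.14%), against 4.72% of array genes. Both strands were searched for each motif, and a match describes letters only. Upstream stretches of 3 genes are given below, with matches in capitals: Ctsz, which had the largest rise of the set and no match, Lamp1, which held the most copies of the core (4), and Gla, which held 2 copies of the longer form, as Ctsa also did. The 30 bases around the AANATGGCG matches of Npc2 (reverse strand) and Ppt1 follow. All are written 5′ to 3′ on the strand of the gene.
Ctsz, chr2:174439040-174439289, minus strand: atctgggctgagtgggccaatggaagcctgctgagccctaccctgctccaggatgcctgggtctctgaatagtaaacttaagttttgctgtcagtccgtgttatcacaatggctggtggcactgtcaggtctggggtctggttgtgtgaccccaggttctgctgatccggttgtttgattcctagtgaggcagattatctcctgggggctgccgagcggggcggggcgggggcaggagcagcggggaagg
Gla, chrX:134601006-134601255, minus strand: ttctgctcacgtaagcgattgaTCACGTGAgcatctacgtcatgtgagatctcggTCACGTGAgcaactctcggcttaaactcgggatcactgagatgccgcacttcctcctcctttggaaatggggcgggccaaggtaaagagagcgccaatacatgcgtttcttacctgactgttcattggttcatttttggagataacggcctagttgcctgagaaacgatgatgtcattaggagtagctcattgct
Lamp1, chr8:13158911-13159160, plus strand: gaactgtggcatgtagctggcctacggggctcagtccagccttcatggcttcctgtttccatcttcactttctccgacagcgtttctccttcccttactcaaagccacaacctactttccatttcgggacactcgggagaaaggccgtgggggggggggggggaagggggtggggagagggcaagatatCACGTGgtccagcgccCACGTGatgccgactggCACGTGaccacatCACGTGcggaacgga
Npc2, chr12:84773287-84773316, minus strand: ccctggaggcCGCCATCTTactccgcaagc
Ppt1, chr4:122836243-122836272, plus strand: tgtgattgctAAGATGGCGtcgtcctgttc

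Yy1 was lower on every knockout array. The wild type mean was 9.38 ± 0.22 log2 units (SD, n = 3), the knockout mean was 8.35 ± 0.11 (SD, n = 4), and the two-sided exact permutation p of 0.0286 was the smallest that 35 divisions of the arrays allow. Muscle fibre markers had a summed intensity of 438000 to 460000 in wild type and 446000 to 460000 in knockout, so the arrays carried the transcripts of their labelled tissue. The sum hides changes of single fibre markers: of 12, 4 rose (33.3%) and 3 fell (25%), against 17% and 16% of all genes, and those with the smallest p were Mb (-0.41), Tnni1 (0.40) and Myh2 (-0.46), with log2 fold changes in brackets here and below. The fibre markers that rose came to 1 without wild type array 2 or with a replicate block, and to 2 without wild type array 3 or knockout array 2. Markers of other cell types also differed between the genotypes. Of 22 macrophage markers 21 rose, with a summed intensity of 5280 to 6130 in wild type and 11900 to 19400 in knockout, and Mpeg1 (2.52), Lgals3 (2.44) and Cd68 (2.05) had the smallest p among them. Of 10 fibroblast markers 8 rose (21600 to 25600 against 27900 to 42200), among them Col1a1 (0.96), Col3a1 (1.27) and Dpt (0.46). Only 3 of the 10 fibroblast markers rose when the first wild type array was left out, and 4 when the second was. Of 10 endothelial markers 9 fell (5380 to 5860 against 2810 to 3020), among them Cdh5 (-1.04), Tie1 (-0.96) and Esam (-0.87). T and B cell markers gave 0 calls among 9 (limma; 0 also at an unadjusted p under 0.05), and of 8 neutrophil and mast cell markers only S100a9 was called, lower, a call lost without any one of 6 arrays. More cells of a type and more RNA per cell cannot be told apart in these samples.

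A larger share of the lysosomal genes than of all genes was called higher in knockout, a difference that was not tested, and the genes did not move as one block. Of the 32 measured, 12 rose (37.5%), 5 fell (15.6%) and 15 did not pass the test. Over all 12393 genes 17% were called higher and 16% lower, so the share that fell was close to that of all genes. The median log2 fold change, always knockout minus wild type, was 0.088 for the set and 0.013 for all genes. A call means an adjusted p under 0.05 in limma, a linear model fitted to each gene with Benjamini-Hochberg adjustment over all genes. Values are log2(intensity + 1). The genes that rose were Ctsz, Ctsk, Lgmn, Galns, Hexa, Neu1, Manba, Asah1, Gm2a, Npc2, Lamp2 and Grn, and those that fell were Ctsh, Gusb, Ppt1, Psap and Scarb2. Wild type and knockout values did not overlap in 12 of the 32 genes higher and 6 of the 32 lower in knockout, against 20.5% and 19.1% of all genes. The share that lay lower without overlap was thus close to that of all genes. Of the 17 called genes (53.1% of the set, against 32.9% of all genes), 12 kept their call when any single array was left out. Only 3 fell once array 1 or 2 of the wild type, or array 4 of the knockout, was left out. Brighter genes were called more often: in a fit of only the 6196 genes above the median level, 52.1% of all were called. That fit held 28 of the members, of which 12 rose and 5 fell.

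**Figure D1:**
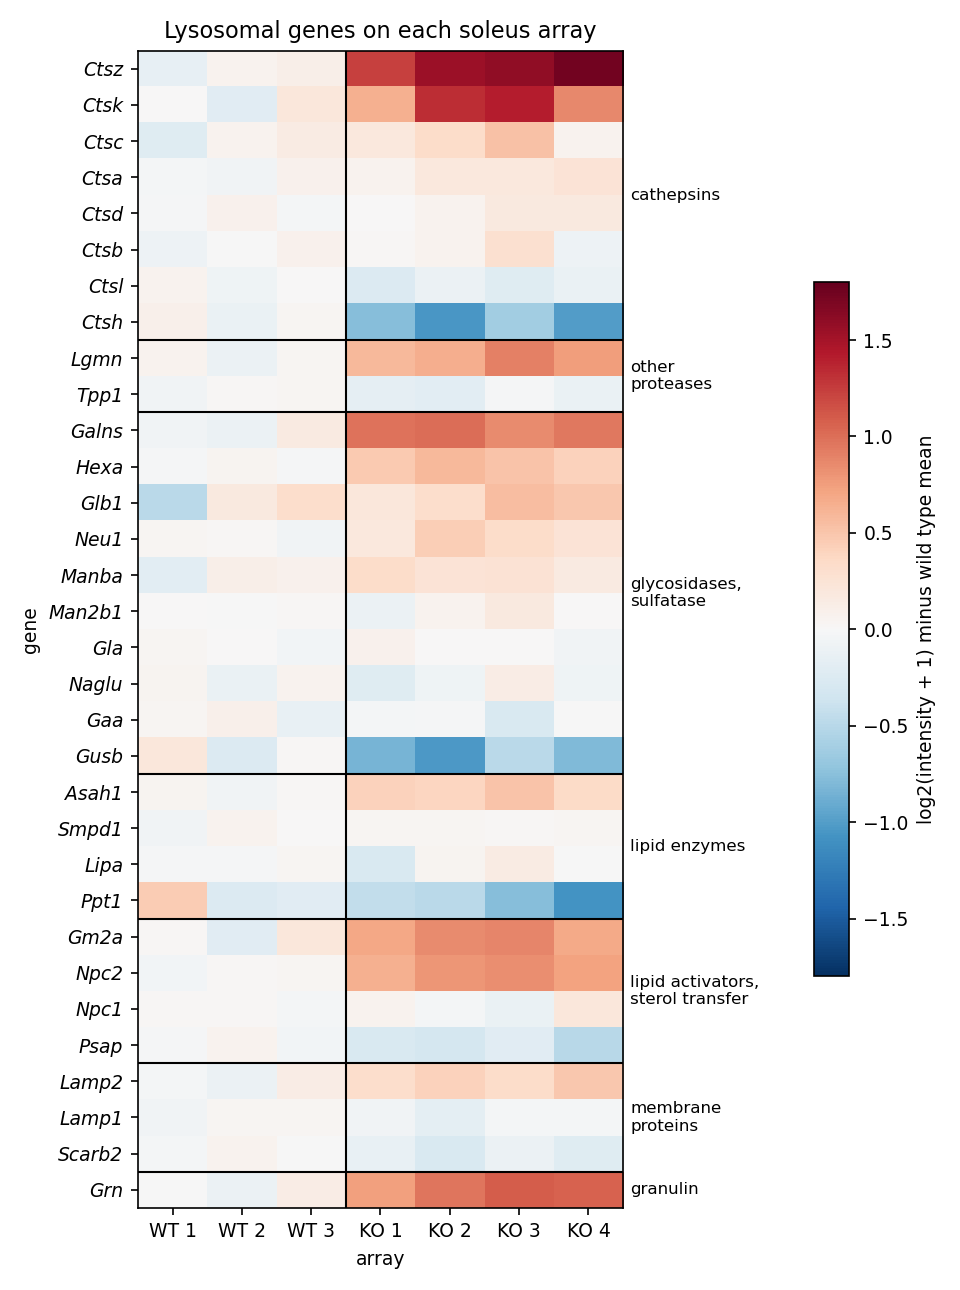
Deviation of each gene from its wild type mean, in log2(intensity + 1) units, on the 3 wild type (WT) and 4 knockout (KO) arrays, with rows grouped by role. Ctsz, Ctsk, Galns and Grn are red on all 4 knockout arrays, and Ctsh, Gusb and Ppt1 are blue on them.

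Among the 8 cathepsins, the best known lysosomal proteases, 2 rose (25%), 1 fell (12.5%) and 5 did not pass. Of all genes 17% rose and 16% fell. Ctsz, of cathepsin Z, a carboxypeptidase abundant in myeloid cells, measured 9.87, 10.08 and 10.12 log2 units on the wild type arrays and 11.25, 11.56, 11.62 and 11.76 on the knockout arrays. Every knockout array lay above every wild type array, by more than a full log2 unit. The log2 fold change was 1.52 (SE 0.12, adjusted p = 7.8e-05), or 2.88-fold. Its other probe sets gave 1.59 and 1.69. Ctsk, of the collagen-degrading cathepsin K, measured 7.73, 7.52 and 7.94 in wild type and 8.37, 9.06, 9.15 and 8.6 in knockout. These groups also stood apart, with the knockout arrays spread more widely (SD 0.37 against 0.21). Ctsk rose by 1.06 (SE 0.19, adjusted p = 0.00314), or 2.09-fold.

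Ctsh, of the aminopeptidase cathepsin H, went the other way. It measured 9.67, 9.46 and 9.61 in wild type and 8.82, 8.53, 8.96 and 8.58 in knockout, with no overlap. The difference in log2 units was -0.86 (SE 0.11, adjusted p = 0.000632), which left 55.2% of the wild type signal. The major housekeeping cathepsins did not pass the test. Ctsb, of cathepsin B, had a log2 fold change of 0.078 (SE 0.092), Ctsd, of the aspartic protease cathepsin D, 0.10 (SE 0.064) and Ctsl, of the endopeptidase cathepsin L, -0.17 (SE 0.064), with adjusted p of 0.555, 0.282 and 0.0759. Ctsl was nonetheless lower on each knockout array (12.08 to 12.23) than on any wild type array (12.25 to 12.4). The 3 dimmer probe sets of Ctsb gave -0.28, -0.27 and -0.31, opposite in sign to the brightest, and among all probe sets their adjusted p were 0.0985, 0.0417 and 0.0262, so the direction of Ctsb depends on the probe set. Ctsc, of the dipeptidyl peptidase that activates granule serine proteases, measured 0.27 (SE 0.13, adjusted p = 0.135), and Ctsa, of the protective protein that stabilises beta-galactosidase and neuraminidase, 0.17 (SE 0.063, adjusted p = 0.0667). Ctsa passed without knockout array 1 (adjusted p = 0.0358) and among genes above the median level (0.0443), a fit in which 52.1% of all genes passed. Ctsc passed in the fit with a replicate block, at 0.35 (adjusted p = 0.02), which brought the cathepsins that rose to 3.

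The other 2 proteases differed from each other. Lgmn, of legumain, the asparaginyl endopeptidase that processes several cathepsins, measured 9.87, 9.71 and 9.84 in wild type and 10.39, 10.47, 10.72 and 10.56 in knockout. All knockout values lay higher, and the gene rose by 0.73 (SE 0.085, adjusted p = 0.000379), or 1.66-fold. Tpp1, of tripeptidyl peptidase 1, the enzyme lost in a childhood neuronal ceroid lipofuscinosis, measured 10.97, 11.06 and 11.07 in wild type and 10.88, 10.85, 11.02 and 10.92 in knockout. The groups overlapped, and the log2 fold change of -0.12 (SE 0.06) did not pass (adjusted p = 0.176).

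Of the 10 genes for glycan breakdown, 4 rose (40%), 1 fell (10%) and 5 did not pass, where 17% of all genes rose and 16% fell. Galns, of the sulfatase that removes sulfate from keratan and chondroitin sulfate, measured 6.8, 6.76 and 7.02 in wild type and 7.84, 7.86, 7.71 and 7.81 in knockout. The knockout arrays were tightly grouped (SD 0.065) and all above wild type, and the rise was 0.94 (SE 0.077, adjusted p = 8.85e-05), or 1.92-fold. Hexa, of the alpha subunit of beta-hexosaminidase, measured 10.73, 10.8 and 10.73 in wild type and 11.22, 11.33, 11.27 and 11.17 in knockout. It rose by 0.50 (SE 0.058, adjusted p = 0.000379), with no overlap. Smaller rises were those of the sialidase gene Neu1, by 0.30 (SE 0.073, adjusted p = 0.013), and the beta-mannosidase gene Manba, by 0.25 (SE 0.084, adjusted p = 0.0498). Leaving out wild type array 3 ended the call of Neu1 (adjusted p = 0.0535), and Manba lost it without any one of the 7 arrays (0.0503 to 0.136). Without wild type array 3 the number of these genes that rose was 2. A dimmer Neu1 probe set gave 0.10 and another 0.63.

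Gusb, of beta-glucuronidase, was the gene of this role that fell. It measured 9.11, 8.66 and 8.92 in wild type and 8.06, 7.86, 8.41 and 8.11 in knockout. All knockout values lay below wild type, and the log2 fold change was -0.79 (SE 0.14, adjusted p = 0.00315), leaving 57.9% of the wild type signal. A dimmer Gusb probe set gave -0.32 (adjusted p = 0.0966 among probe sets). Gaa, of the acid alpha-glucosidase that digests glycogen, did not pass at -0.084 (SE 0.084, adjusted p = 0.491). The beta-galactosidase gene Glb1 measured 0.39 (SE 0.18, adjusted p = 0.133), with 5.94 on wild type array 1 against 6.59 and 6.73 on the other wild type arrays. The alpha-galactosidase gene Gla (0.0093), Naglu, of an enzyme of heparan sulfate breakdown (-0.061), and the alpha-mannosidase gene Man2b1 (0.027) also did not pass.

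**Figure D2:**
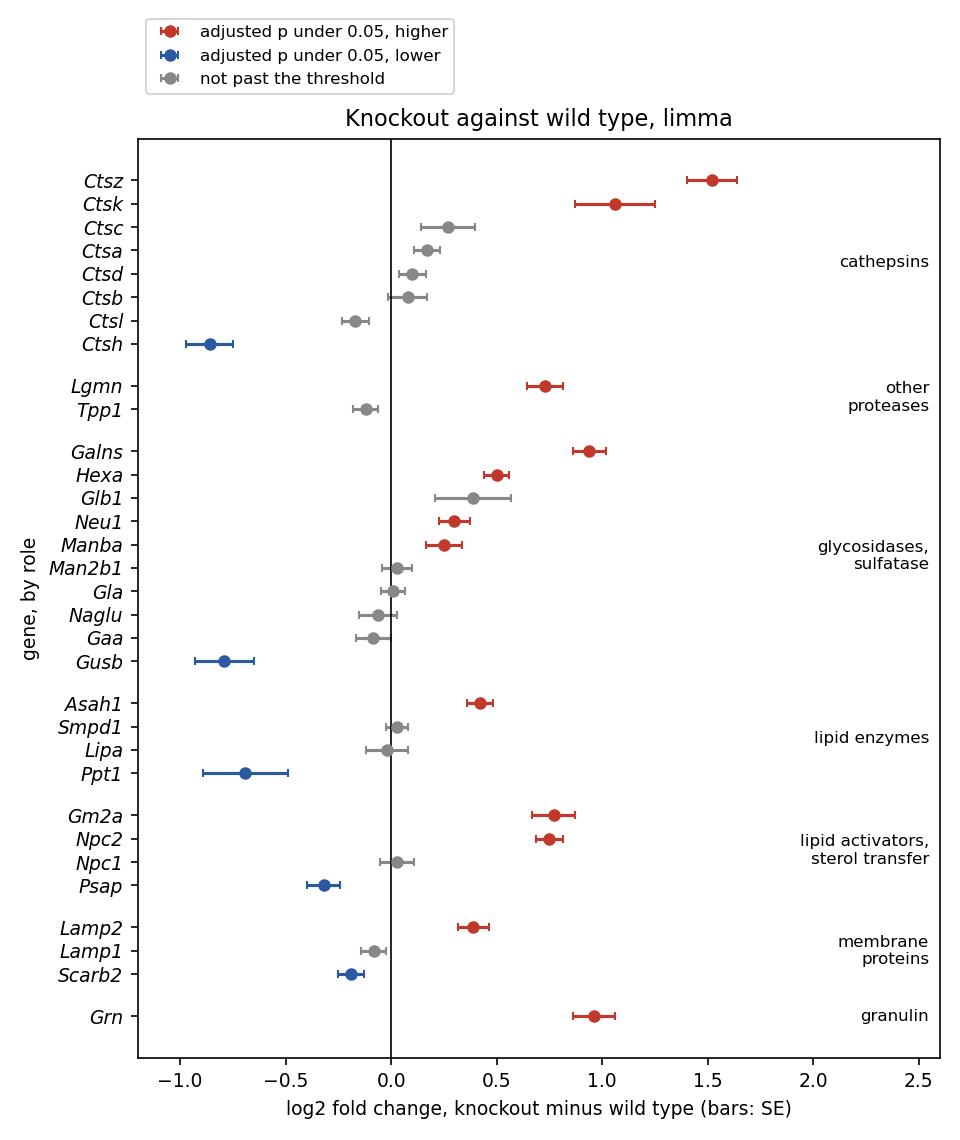
Log2 fold change (knockout minus wild type) of the 32 genes with its standard error as a bar, ordered within each role. Each role with several genes has at least 1 red point, and only the pair of other proteases and granulin have no blue point.

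The 4 lipid enzymes gave 1 rise and 1 fall (25% each), against 17% and 16% of all genes, and so small a group says little about shares. Asah1, of acid ceramidase, which splits ceramide, measured 10.24, 10.12 and 10.21 in wild type and 10.6, 10.58, 10.71 and 10.54 in knockout. The knockout values were all higher, by 0.42 in the mean (SE 0.061, adjusted p = 0.00115). Ppt1, of palmitoyl-protein thioesterase 1, which removes fatty acids from proteins, measured 10.25, 9.55 and 9.58 in wild type and 9.35, 9.31, 9.03 and 8.72 in knockout. All knockout values were lower, but wild type array 1 stood well above the other wild type arrays. Its log2 fold change of -0.69 (SE 0.20, adjusted p = 0.0311) became -0.46 without that array (adjusted p = 0.0935), and the call was also lost without knockout array 3 (0.0747) or 4 (0.0673). The dimmer probe set gave -0.94 (adjusted p = 0.00433 among probe sets).

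Smpd1, of acid sphingomyelinase, measured 10.48, 10.61 and 10.55 in wild type and 10.58, 10.58, 10.57 and 10.58 in knockout, with overlap (0.030, SE 0.052, adjusted p = 0.699). Lipa, of the acid lipase that frees cholesterol from its esters, measured -0.019 (SE 0.10, adjusted p = 0.898), and its dimmer probe sets 0.21 and 0.30.

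Proteins that present lipids to enzymes or move sterols moved in both directions. Npc2, which binds cholesterol in the lysosomal lumen, measured 10.13, 10.2 and 10.22 in wild type and 10.82, 10.98, 11.02 and 10.9 in knockout. The separation was wide beside the spread, and Npc2 rose by 0.75 (SE 0.064, adjusted p = 0.000112), or 1.68-fold. Its membrane partner Npc1, to which it hands cholesterol, did not pass at 0.028 (SE 0.08, adjusted p = 0.816). The GM2 activator gene Gm2a measured 8.73, 8.5 and 8.91 in wild type and 9.4, 9.56, 9.59 and 9.39 in knockout. It was higher on every knockout array and rose by 0.77 (SE 0.10, adjusted p = 0.000708), while its dimmer probe set gave 0.34. Psap, the precursor of the saposins that assist sphingolipid enzymes, measured 12.96, 13.05 and 12.93 in wild type and 12.71, 12.67, 12.78 and 12.48 in knockout. It was lower on every knockout array, at -0.32 (SE 0.078, adjusted p = 0.0143) in the set used and -0.56 in the dimmer probe set. The call of Psap ended without wild type array 2 (adjusted p = 0.06), under quantile normalization (0.061) and in the fit with a replicate block (0.0623).

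Of the 3 measured membrane proteins, 1 rose, 1 fell (33.3% each, against 17% and 16% of all genes) and 1 did not pass. This group too is small. Lamp2, needed for the fusion of autophagosomes with lysosomes and lost in Danon disease of heart and muscle, measured 12.26, 12.2 and 12.43 in wild type and 12.61, 12.71, 12.63 and 12.79 in knockout. It rose by 0.39 (SE 0.075, adjusted p = 0.00443) with no overlap. Its other probe sets gave 0.45, 0.58 and 0.10. The related Lamp1 measured 13.1, 13.19 and 13.2 in wild type and 13.1, 12.98, 13.12 and 13.12 in knockout, with overlap (-0.083, SE 0.06, adjusted p = 0.329). Scarb2, the receptor that brings beta-glucocerebrosidase to the lysosome, measured 10.98, 11.08 and 11.01 in wild type and 10.89, 10.75, 10.91 and 10.8 in knockout. Its change of -0.19 (SE 0.06, adjusted p = 0.044) was the smallest among the called genes. The call was lost when any wild type array, or array 2 or 4 of the knockout, was left out, and the other Scarb2 probe set gave -0.015.

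Grn, of progranulin, a secreted protein that is cut into granulins in the lysosome, measured 10.06, 9.97 and 10.2 in wild type and 10.81, 11.04, 11.16 and 11.13 in knockout. All knockout arrays lay higher, and the rise was 0.96 (SE 0.10, adjusted p = 0.000196), or 1.95-fold. The name of the probe set used marks it as one whose probes may match other transcripts. A Grn set without that mark gave 0.72 (adjusted p = 0.00122 among probe sets). The same mark is on the sets used for Atp6ap2, Laptm5, Laptm4b and Flcn, named below. It is also on the Ctsz set that gave 1.59 and the Neu1 set that gave 0.63.

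The cathepsins were then set beside the glycosidases and lipid enzymes. Of 8 cathepsins 2 were called higher (25.0%), and of 14 genes of glycan and lipid breakdown 5 were (35.7%), against 17% of all genes. The median log2 fold changes were 0.14 and 0.028. The mean of the cathepsins relative to wild type was 0.14, 0.30, 0.42 and 0.23 on the 4 knockout arrays. The mean of the glycosidases was 0.11, 0.15, 0.21 and 0.13, and that of the 4 lipid enzymes -0.07, 0, -0.02 and -0.18, which overlapped their wild type values of 0.11, -0.07 and -0.04. Subtracting the mean of the 14 genes from that of the cathepsins gave -0.05, -0.01 and 0.06 on the wild type arrays and 0.09, 0.19, 0.28 and 0.19 on the knockout arrays, a difference of 0.19 log2 units with no overlap. That difference depended on Ctsz: without this gene, a setting chosen after seeing the data, it was 0.0071 and the arrays overlapped. No other cathepsin was left out in turn, and Ctsk (1.06) and Ctsh (-0.86) also had large changes, in opposite directions. No test was made of these group means, since the genes were chosen with results of these data known.

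The levels of macrophage and fibroblast markers were set beside the means of the lysosomal groups on each knockout array. Relative to wild type, the mean of the macrophage markers was 0.96, 1.18, 1.48 and 1.03 on knockout arrays 1 to 4, and that of the fibroblast markers 0.39, 0.77, 1.0 and 0.49. Both put the 4 knockout arrays in the same order as the cathepsin mean and the glycosidase mean, although some of the glycosidase means lay close together. The mean of all members (0.14, 0.21, 0.28 and 0.17) had that order too. The lipid enzymes had another order, highest on knockout array 2 and lowest on array 4. With the lipid activators and sterol transfer genes added, the lipid mean was 0.11, 0.16, 0.17 and 0.05, highest on array 3. Single genes did not all follow the order of the markers: Ctsk was highest on knockout array 3, as the markers were, and Ctsz on knockout array 4. Of the glycan breakdown genes that rose, Galns was lowest on knockout array 3 (7.71). Hexa (11.33) and Neu1 (8.1) were highest on knockout array 2, and Manba (8.18) on knockout array 1. Gusb, which fell, was highest on knockout array 3 (8.41), as were Glb1, Naglu and Man2b1, which did not pass. The dimmest macrophage marker, Itgam, had a mean intensity of 25, and no marker was listed at 0. The part of these cell types in the lysosomal changes was not tested.

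**Figure D3:**
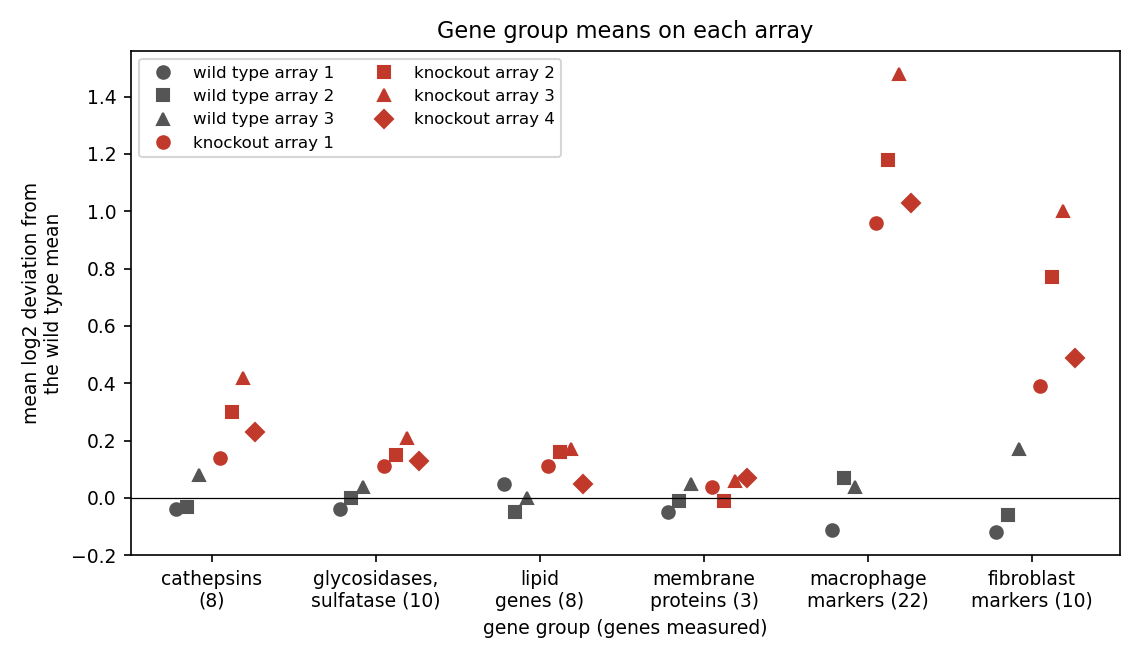
Mean log2 deviation from the wild type mean for 4 roles of lysosomal genes and for macrophage and fibroblast markers, with one symbol for each array. Knockout array 3 is highest for the cathepsins (0.42), the macrophage markers (1.48) and the fibroblast markers (1.0), and the membrane proteins stay near 0.

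Other genes of the pathway were counted from lists drawn up beside the members, and their shares stand against the 17% of all genes called higher and the 16% called lower. Of 21 other lysosomal hydrolases 5 rose (23.8%) and 2 fell (9.52%), with a median of 0.0031. Plbd1, of a phospholipase B-like protein, changed most, from 11.13, 11.56 and 11.28 in wild type to 8.76, 8.04, 8.31 and 8.27 in knockout. It fell by 2.98 log2 units (SE 0.17, adjusted p = 3.03e-05), or 7.89-fold. Ctss, of cathepsin S, an enzyme of antigen-presenting cells, measured 8.23, 8.38 and 8.05 in wild type and 10.4, 9.87, 10.5 and 10.36 in knockout, and rose by 2.06 (SE 0.15, adjusted p = 6.01e-05). The fucosidase gene Fuca2 rose by 0.47 (SE 0.068) and the acid amidase gene Naaa by 0.50 (SE 0.12), while Fuca1 changed by -0.35 (SE 0.083). Naaa lost its call without wild type array 1 or 3 and Fuca1 without wild type array 3. Leaving out array 1 or 3 of the wild type, or array 2 of the knockout, left 3 that rose. Leaving out the third wild type array left 1 that fell. With the second brightest probe set, which Fuca2 and Naaa have and Ctss lacks, 0 rose and 1 fell.

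Among 17 other lysosomal membrane genes 5 rose (29.4%) and 4 fell (23.5%), with a median of 0.16. The largest rises were in genes known from leukocytes: Cd68, a macrophage protein that also stands in the macrophage list, by 2.05 (SE 0.13), the metal transporter Slc11a1 by 1.78 (SE 0.18) and Laptm5 by 1.52 (SE 0.14). Laptm4b changed by -0.82 (SE 0.10), Tmem192 by -0.49 (SE 0.066) and Cln3, lost in juvenile neuronal ceroid lipofuscinosis, by -0.51 (SE 0.08). Adjusted p for these 6 genes lay between 4.33e-05 and 0.00166 in limma.

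Of 16 genes of the vacuolar proton pump, which acidifies the lysosome, 7 rose (43.8%) and 2 fell (12.5%), with a median of 0.12. Atp6ap2, an accessory subunit also known as the prorenin receptor, rose by 0.73 (SE 0.087), Tcirg1, of the a3 subunit abundant in osteoclasts, by 0.45 (SE 0.079) and Atp6v1g1 by 0.55 (SE 0.12). The subunits Atp6v1d (-0.28, SE 0.088) and Atp6v1b2 (-0.24, SE 0.079) fell and lost their calls without any one of 5 and 6 arrays. Leaving out wild type array 1 or 2 left 3 that rose, and leaving out knockout array 1 or 2 left 4. Averaging all probe sets of a gene, or a replicate block, also left 4 that rose and 1 that fell, and quantile normalization left 1 that fell. With the second brightest probe set, which not all of these genes have, 1 rose and 1 fell. Those that fell came to 0 when any wild type array, or array 2 or 3 of the knockout, was dropped or arrays were centred on their median, and to 1 when knockout array 4 was dropped.

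Genes of sorting to the lysosome gave 6 rises (37.5%) and 1 fall (6.25%) among 16, with a median of 0.11. Igf2r, the large mannose 6-phosphate receptor, which also clears the growth factor IGF2, rose by 0.70 (SE 0.091, adjusted p = 0.000651), and the small receptor gene M6pr measured 0.046 (SE 0.058, adjusted p = 0.586). M6pr was named after its value was seen. The retromer genes Vps26a and Vps35 rose by 0.28 (SE 0.056) and 0.25 (SE 0.051), and the tethering gene Vps41 changed by -0.30 (SE 0.048). Dropping wild type array 2 gave 3 that fell, and a replicate block gave 2 that rose. The 6 that rose included Sumf1 (0.51, SE 0.15), of an enzyme that activates sulfatases and does not sort proteins. Sumf1 lost its call without any one of 4 arrays, and Sort1 (0.36, SE 0.12) without any one of 6.

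Of 8 regulators 1 rose (12.5%) and 2 fell (25%), with a median of -0.13. Rragc, a GTPase that recruits mTORC1 to the lysosome, rose by 0.35 (SE 0.06, adjusted p = 0.00241). Flcn, of folliculin, a GTPase-activating protein for it, changed by -0.42 (SE 0.10, adjusted p = 0.0111) and Mitf, a relative of TFEB, by -0.25 (SE 0.068, adjusted p = 0.0231). Tfeb itself, named after its value was seen, measured -0.21 (SE 0.085, adjusted p = 0.0973). Dropping wild type array 3 left 0 that fell, and dropping wild type array 1 or knockout array 3 left 1.

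Of 8 cystatin and serpin genes listed as cathepsin inhibitors, 4 rose (50%) and 0 fell in limma (1 lower at an unadjusted p under 0.05; median 0.57). Cst6, of cystatin E/M, which inhibits legumain and cathepsins, rose by 1.10 (SE 0.069, adjusted p = 4.17e-05), Cstb, of the intracellular cystatin B, by 0.84 (SE 0.076, adjusted p = 0.000132) and Serpinb6a by 0.51 (SE 0.11, adjusted p = 0.00765). The remaining gene that rose, Serping1 (0.63, SE 0.14), is known as an inhibitor of complement, so the list does not hold cathepsin inhibitors alone. Of 20 autophagy genes 3 rose and 3 fell, 15% each way, with a median of 0.004; these shares were close to those of all genes. Gabarap rose by 0.42 (SE 0.052), Map1lc3a by 0.28 (SE 0.068) and Atg3 by 0.18 (SE 0.055). The related Map1lc3b changed by -0.48 (SE 0.056), Gabarapl1 by -0.48 (SE 0.13) and the protease Atg4b by -0.36 (SE 0.068). Dropping wild type array 1 or 3 left 1 that rose.

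**Figure D4:**
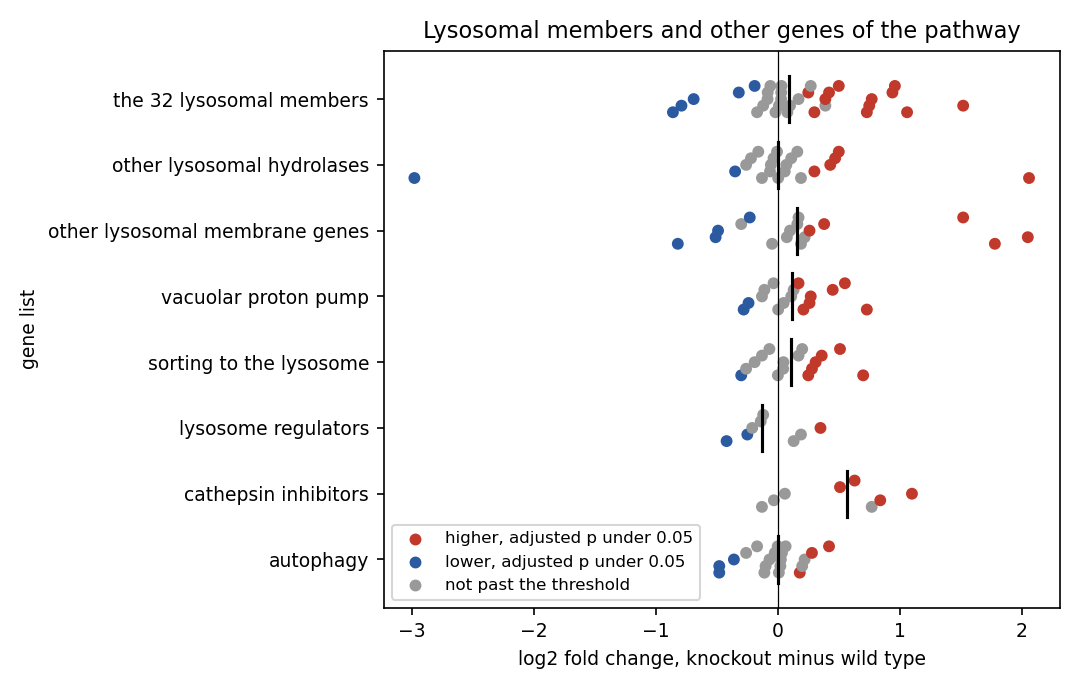
Log2 fold change (knockout minus wild type) of each gene of the lysosomal set and of 7 further lists, one point for each gene, with the list median as a black bar. Points reach from Plbd1 at -2.98 to Ctss at 2.06, and the medians lie between -0.13 (regulators) and 0.57 (cathepsin inhibitors).

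Calls and promoter matches were also set side by side. The core CACGTG was in a window of 1 of the 10 risen genes that had a window (Lgmn), of 0 of 4 that fell and of 8 of 13 that did not pass. Lamp1 held 4 copies of it and Gla 2, and their log2 fold changes were -0.083 and 0.0093. Of the 2 genes with the Yin Yang 1 motif, Npc2 rose and Ppt1 fell. In Npc2 the match began 194 bases before the start site and in Ppt1 at base 27 after it. No test was made of these counts, and whether any factor binds these promoters in soleus was not measured here.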

How the data were processed

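Total RNA was extracted with Trizol and biotin-labelled in an in vitro transcription reaction, as the labels' protocols state. The authors deposited 1 linear intensity for each of 22690 probe sets and 7 arrays, made with RMA per the submitters' processing notes; the sources used here give neither its version nor its annotation. Array medians were 139.1 to 143.2. The table had 0 columns of other samples. Arrays hold no read depth, and their number limits the precision.

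Intensities were taken to log2(value + 1). Of the probe sets, 64 were controls, 20380 had 1 gene symbol, 691 several and 1555 none; symbols were updated through Entrez identifiers (12369 of 12393 genes matched). Groups and replicate numbers came from sample titles. Genes were fitted with limma 3.58.1 in R 4.3.3 (two-sided, Benjamini-Hochberg over 12393 genes, no filter on dim genes). The script was tested on simulated data. No 2 arrays were duplicates: at most 1819 probe sets were equal in all digits. Same-numbered arrays had correlations of deviations of 0.029, -0.13 and 0.017, so the fit has no pairing. Scan dates were not used here.

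The members and lists were chosen with earlier results of these data known. All members are named; of each other list, up to 3 genes in each direction with the smallest p, and others only where the text says so or to explain a count.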

Additional observations from a re-analysis of the deposited data

Results flagged for a closer look

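Within the 4 knockout arrays, 3 of the 33 groups of values examined, each of 1 gene, had an array far from the others by Dixon's test. Chance gives about 1 such group in 20. Gaa measured 10.53 on knockout array 3, against 10.76 to 10.79 on the others. Lamp1 measured 12.98 on knockout array 2, against 13.1 to 13.12. Smpd1 measured 10.57 on knockout array 3 and 10.58 on each of the others, a gap that is large only beside a spread of 0.002 (SD). None of these genes was called.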

How the results depend on the processing

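The alternatives were another pseudocount, a filter, 2 scalings, other choices of probe set, a replicate block, another estimate of the spread and each array left out. For single members and Yy1, 426 values kept the direction and the side of the threshold, 28 lost a call and 3 gained one. Another 18, all of genes not called, changed sign: Gla in 5 settings, Lipa in 4, Man2b1 in 3, Ctsb and Npc1 in 2 each, and Lamp1 and Smpd1 in 1 each. Ctsb reached -0.28 with the second brightest probe set and -0.2 with the mean of all probe sets. No called gene changed direction. With the second brightest probe set, which only 16 of the members have, 5 members rose and 2 fell, of which 1 cathepsin and 0 glycosidases rose and 0 glycosidases fell, and the cathepsin difference was 0.84. That difference rests on Ctsb and Ctsz alone, the only cathepsins with a second probe set. Of the glycosidases that rose in the main fit, only Neu1 has a second probe set, so the others could not be counted. Many genes of the further lists have 1 probe set only. That setting left 1 membrane gene, 2 sorting genes, 0 regulators, 1 cathepsin inhibitor and 1 autophagy gene of those lists higher. With quantile normalization 3 members fell. With the replicate block 3 members fell and 12 rose, among them Ctsc, which gained a call, while Manba, Psap and Scarb2 lost theirs. With only genes above the median level the cathepsin difference was 0.28, and without Ctsz 0.0071. Leaving out 1 array gave 10 to 12 members higher, 3 to 5 lower, 2 to 3 cathepsins higher, 2 to 3 glycosidases higher and a cathepsin difference of 0.16 to 0.22. Fewer of all genes were also called in several settings. The share was 32.9% in the main fit and 25.6% to 32% without 1 array. It was 26% with the replicate block and 26.6% with the second brightest probe set. Calls lost by the members and the further lists in these settings stand beside that general loss. The settings without Ctsz and with the lipid activators added (0.14) were chosen after seeing the data. No detection calls were used, so background may limit the fold changes of dim genes such as Gla.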
